A study of Mus musculus with 4 samples.

Results

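Hepatocyte identity transcription factors are DNA-binding proteins that together keep the gene program of the mature liver cell running. The 8 genes described here are Hnf4a, Foxa1, Foxa2, Foxa3, Onecut1, Cebpa, Cebpb and Prox1. They were taken by gene symbol from the table of hepatic transcripts, in which they are 8 of 27027 entries. All 8 passed the filter for low counts (normalized reads averaging 20 or more over the 4 libraries), as did 10066 entries in all.

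The study followed acute liver injury by acetaminophen (APAP, paracetamol) by 3′mRNA sequencing in mice labelled C57BL/6 (substrain C57BL/6J in the methods). Vehicle-treated control mice received a 0.9% NaCl solution and APAP-treated mice 300 mg/kg APAP, both intraperitoneally, and livers were taken after 24 h or 48 h. All 4 groups share this strain, and the labels name no allele or transgene. Hepatic RNA of the male mice of each group was pooled at equal shares, so that each of the 4 groups is 1 library of whole liver, which holds hepatocytes together with bile duct, vascular, stellate and immune cells. The spread between mice is not visible in such a design, no difference has a replicate check, and no p-values are given. In whole liver, fewer cells of a type and less RNA per cell cannot be told apart.

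HNF4A is a nuclear receptor that binds the regulatory regions of a large share of hepatocyte genes, and FOXA1, FOXA2 and FOXA3 are forkhead proteins that bind condensed chromatin and make it accessible to other factors. ONECUT1, also known as HNF6, is a cut-homeodomain factor of hepatocytes and bile duct cells, and PROX1 is a homeodomain protein that acts as a corepressor of nuclear receptors. C/EBPα and C/EBPβ are leucine zipper proteins that bind the same DNA letters. C/EBPα is known for metabolic gene expression and restraint of cell division in the quiescent liver, whereas C/EBPβ is known for the acute-phase response and for liver regeneration.

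Massive analysis of cDNA ends (MACE) sequences fragments next to the poly(A) tail of an mRNA. The counts on genes summed to 4859661 (24 h) and 5191990 (48 h) for control and to 5698778 (24 h) and 4938164 (48 h) for APAP, the order in which pairs of values are given throughout. Normalized reads are counts divided by a size factor per library, which was 0.880 and 0.933 for the controls and 1.17 and 1.07 for APAP. Each fold is a ratio of normalized reads and is followed by its 95% exact (Clopper-Pearson) interval, which covers counting error only. As a check of the tissue, albumin (Alb) had 208729 to 254523 reads per library, and the 8 hepatocyte markers found in the table summed to between 81210 and 101233 RPM (reads scaled to the library total).

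Across the 8 factors, the direction of the difference between APAP and control was mixed. At 24 h Foxa3 and Cebpb exceeded control by 1.5-fold or more, and Onecut1 and Cebpa were lower than control by as much. Thus 2 of 8 factors were past this size upward, where 11.5% of all genes tested were, and 2 of 8 downward, where 13.3% of all genes were. At 48 h, 1 of 8 factors, Foxa3, was past it upward (10.6% of all genes), and 2 of 8, Onecut1 and Cebpa, downward (13.6% of all genes). Cebpb was then below this size. The 8 factors were chosen with earlier results of these data known, so that these counts are a description only. When libraries were scaled by their totals, Cebpb (1.65-fold) took the place of Cebpa (0.766 of control) among the factors past it at 48 h. Hnf4a, Foxa2 and Prox1 stayed within 1.5-fold of control at both time points, and so did Foxa1, whose few reads allow larger differences. The median log2 fold of the 8 factors was 0.02 at 24 h and -0.13 at 48 h, beside -0.00 and -0.03 over all genes tested. The control pools, both without APAP but from different mice and times, give a yardstick. Between them 12.2% of all genes differed by at least 1.5-fold in either direction, and among the 8 factors 1 did, namely Foxa1.

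**Figure D1:**
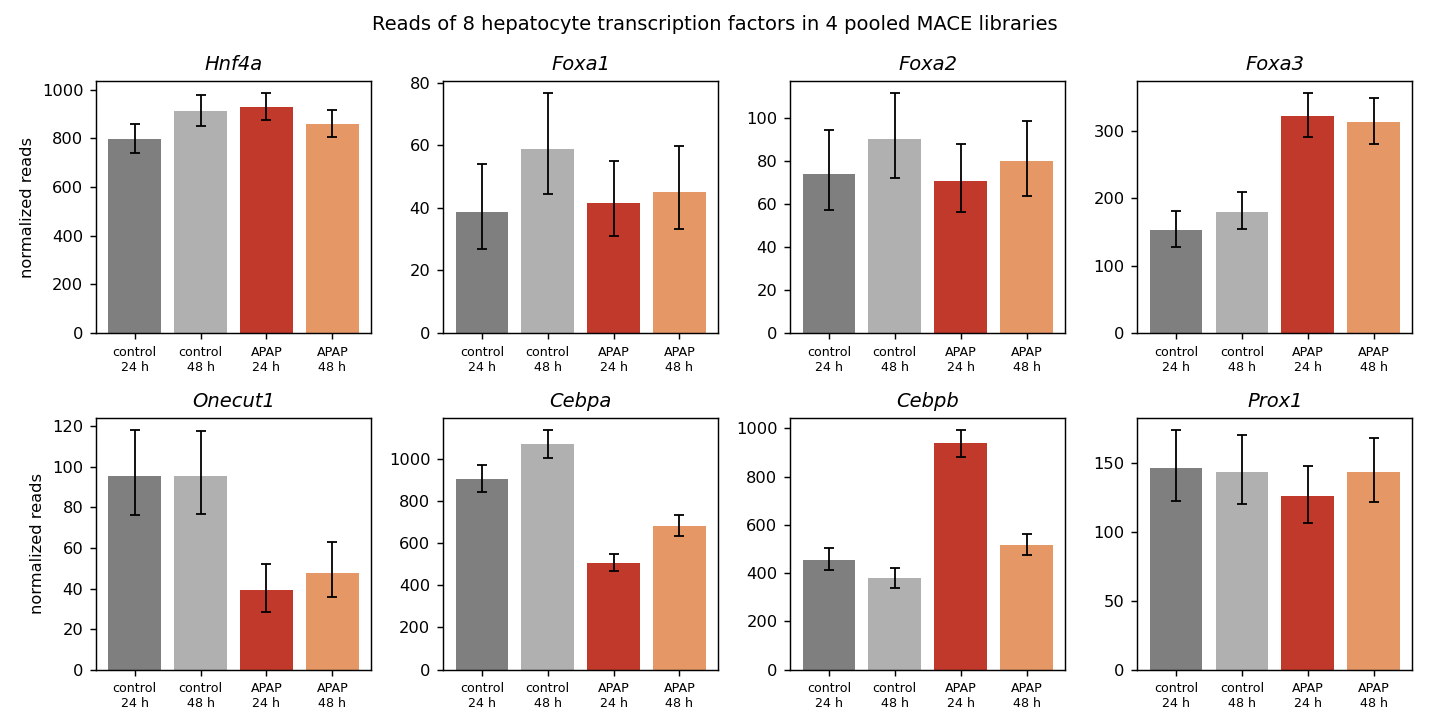
Normalized reads (y axis, linear from 0) of the 8 transcription factors in the control and APAP pools at 24 h and 48 h (x axis), 1 bar per library, with the 95% exact counting interval as error bars. Foxa3 and Cebpb stood higher, and Onecut1, Cebpa and, by a small margin, Prox1 lower, in both APAP pools than in both control pools. How often such an order of the pools holds over all genes was not counted, so that it is a description only. The bars of Hnf4a lay between 798 and 930.

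**Figure D2:**
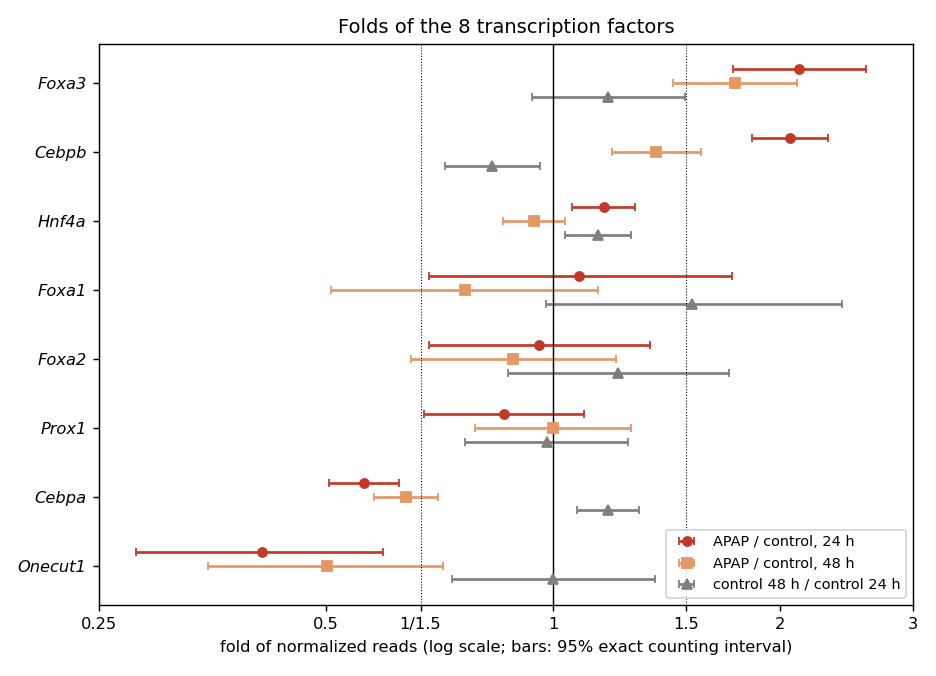
Fold of normalized reads (x axis, log scale) of each factor (y axis) in APAP against control at 24 h (circles) and 48 h (squares) and in the control pool at 48 h against that at 24 h (triangles), with 95% exact counting intervals. Dotted lines mark 1.5-fold in each direction, and the intervals of Foxa3 and of Cebpb lay above 1 and those of Cebpa and Onecut1 below 1 at both time points.

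Hnf4a had the most reads of the 8 factors and differed little between libraries. The gene lies on the plus strand at chr2:163506808-163572910 (GRCm38). It had 702 and 852 reads in the controls against 1092 and 918 reads after APAP. Normalized, these were 798, 914, 930 and 861, so that the values of control and APAP overlapped. The fold was 1.17 at 24 h (1.06 to 1.28) and 0.942 at 48 h (0.857 to 1.04). The control pools differed from each other by 1.14-fold (1.03 to 1.27), which is about the size of the difference between APAP and control at 24 h. The fold at 48 h was 0.809 (0.706 to 0.926) of that at 24 h, and this interval excludes 1.

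Hnf4a is transcribed from an upstream start and from a start further downstream inside the gene, known as P2 and P1, and P1 is the one used in adult liver. The 250 bases before the downstream start are shown because Hnf4a is the factor with the most reads. They lie in the body of the gene, on the plus strand at chr2:163546905-163547154 (RefSeq, GRCm38.p6). Capitals mark the CCAAT letters on the opposite strand, 216 bases before the start.
Hnf4a downstream start: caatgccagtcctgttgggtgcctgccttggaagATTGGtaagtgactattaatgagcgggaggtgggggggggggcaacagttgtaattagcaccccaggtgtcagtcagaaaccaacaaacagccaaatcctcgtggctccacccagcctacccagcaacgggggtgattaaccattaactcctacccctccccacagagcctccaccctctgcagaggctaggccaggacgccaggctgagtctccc
In this search 33.8% of 32817 RefSeq promoter windows of the same length held the CCAAT letters on either strand. Reads from the 3′ end do not tell the starts apart, so that the reads of Hnf4a are the sum over both.

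An antisense transcript, Hnf4aos, runs on the opposite strand across the upstream start of Hnf4a, at chr2:163493807-163541720. It had 101 and 83 reads in the controls but 61 and 89 after APAP. At 24 h it was 2.21 times lower (1.59 to 3.09) in the APAP pool, whereas at 48 h the fold was 0.938 (0.687 to 1.28). Per Hnf4a read there were 0.144 and 0.0974 Hnf4aos reads in the controls and 0.0559 and 0.0969 after APAP. The APAP pool at 24 h thus had the lowest antisense share of the 4 libraries. This share has the Hnf4a reads as its divisor, so that it falls by construction where they are higher. The sources used here do not say whether reads were counted by strand, and without strand the reads of a gene and of its antisense partner cannot be told apart.

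The genes whose pattern over the 4 libraries was most like that of Hnf4a were Ewsr1, an RNA-binding protein, Cdk4, a cell cycle kinase, and Rpl5, a ribosomal protein. Likeness was the Euclidean distance of log2 normalized reads, centred on each gene's mean over the 4 libraries, among the 4398 genes that averaged 100 or more normalized reads. The distances were 0.0216, 0.0242 and 0.0424. Cdk4, for example, had 93, 112, 142 and 122 reads in the order control 24 h, control 48 h, APAP 24 h and APAP 48 h. A shared order of the libraries follows from the choice by distance. Raw counts also rise with the size factor, which was lowest for control and highest for APAP at 24 h.

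Of the forkhead genes, Foxa3 was higher after APAP at both time points, whereas Foxa1 and Foxa2 were within counting error of control. Foxa3 lies on the minus strand at chr7:19013284-19023538. It had 134 and 168 reads in the controls against 378 and 334 reads after APAP. Normalized, these were 152 and 180 against 322 and 313, and both APAP pools were above both controls. The fold of Foxa3 was 2.11 at 24 h (1.73 to 2.59) and 1.74 at 48 h (1.44 to 2.11). The folds at both time points did not differ beyond counting error (ratio 0.823, 0.622 to 1.09), and the control pools differed by 1.18-fold (0.937 to 1.5).

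The 250 bases before the start of Foxa3 are shown as the promoter of the forkhead gene that differed. They lie on the minus strand at chr7:19023540-19023789 (RefSeq, GRCm38.p6), and capitals mark a CCAAT box 108 bases and a TATA box (TATAAA) 36 bases before the start.
Foxa3: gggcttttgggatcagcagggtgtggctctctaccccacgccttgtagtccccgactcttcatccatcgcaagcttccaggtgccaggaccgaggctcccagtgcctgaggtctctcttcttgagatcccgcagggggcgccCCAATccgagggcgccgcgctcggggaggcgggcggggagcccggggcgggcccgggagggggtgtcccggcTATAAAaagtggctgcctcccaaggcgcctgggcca
The TATA box letters were found in 12.4% of all promoter windows on either strand. Among the windows of Foxa1 and Foxa2, TATA letters occurred before the most downstream of the 3 starts of Foxa2 only, 208 bases before it and on the opposite strand. The Foxa1 window held the FOXA site (GTAAACA, the opposite strand of TGTTTAC) 141 bases before the start, letters that 3.16% of all windows held.

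Foxa1, at chr12:57540628-57546916 on the minus strand, had 34 and 55 reads in the controls and 49 and 48 after APAP, the fewest of the forkhead genes. Its folds were 1.08 (0.683 to 1.72) and 0.763 (0.507 to 1.14). The intervals are wide, include 1 at both time points and do not exclude a difference of 1.5-fold, and the control pools alone lay 1.53-fold apart (0.977 to 2.41). Foxa2, at chr2:148042877-148046969 on the minus strand, had 65 and 84 reads in the controls and 83 and 85 after APAP. Its folds were 0.957 (0.683 to 1.34) and 0.885 (0.647 to 1.21), and the normalized values of control (73.9 and 90.1) and APAP (70.7 and 79.7) overlapped.

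Within a library, the shares of the forkhead genes do not depend on how libraries are scaled. Foxa3 made up 57.5% (50.9 to 63.9) and 54.7% (49.0 to 60.4) of the reads of the 3 Foxa genes in the controls. After APAP its share was 74.1% at 24 h (70.1 to 77.9) and 71.5% at 48 h (67.2 to 75.6). The intervals of both APAP pools lay above those of both controls. Foxa2 made up 27.9% and 27.4% in the controls against 16.3% and 18.2% after APAP, and Foxa1 14.6% and 17.9% against 9.61% and 10.3%.

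Onecut1 was lower after APAP at both time points, and with size factors and the control of the same time its fold was the largest of the 8 factors. With library totals it was 0.467 of control at 24 h and 0.602 at 48 h, and the largest fold was then that of Foxa3 (2.41 and 2.09). It had 84 and 89 reads in the controls against 46 and 51 reads after APAP. Normalized, these were 95.5 and 95.4 against 39.2 and 47.8, so that the controls were nearly equal and both APAP pools lay below them. Onecut1 was 2.44 times lower (1.68 to 3.57) at 24 h and 2.00 times lower (1.40 to 2.87) at 48 h. The ratio of the folds was 1.22 (0.720 to 2.07). Its counts were low, and the intervals are accordingly wide.

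Onecut1 lies on the plus strand at chr9:74861921-74891781. The 250 bases before its start are shown because Onecut1 was lower at both time points. They lie at chr9:74861671-74861920 on the plus strand (RefSeq, GRCm38.p6), and capitals mark the only motif found there, a cAMP-response element (CRE) half-site on the opposite strand (TGACG read from the other side), 139 bases before the start.
Onecut1: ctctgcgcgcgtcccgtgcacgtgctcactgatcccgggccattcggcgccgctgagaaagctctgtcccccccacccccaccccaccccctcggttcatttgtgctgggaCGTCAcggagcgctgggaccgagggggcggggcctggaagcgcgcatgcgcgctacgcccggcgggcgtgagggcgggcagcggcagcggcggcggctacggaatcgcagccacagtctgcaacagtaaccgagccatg
The half-site occurred in 17.7% of all promoter windows. The window also lies inside Gm20649, a long noncoding RNA gene on the same strand at chr9:74848463-74891476 that overlaps most of Onecut1. The deposited Onecut1 entry includes reads that could not be assigned to 1 of the 2 genes. Gm20649 alone had 24 and 31 reads in the controls and 10 and 5 after APAP, which is 3.20 times lower (1.48 to 7.51) at 24 h and 7.09 times lower (2.73 to 23.4) at 48 h. With both entries summed, the fold was 0.388 at 24 h (0.276 to 0.541) and 0.408 at 48 h (0.292 to 0.565).

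The paralog Onecut2 was close to control, with 393 and 458 reads in the controls and 553 and 461 reads after APAP. Its folds were 1.05 (0.925 to 1.20) and 0.880 (0.772 to 1.004). Per Onecut2 read there were 0.214 and 0.194 Onecut1 reads in the controls and 0.0832 and 0.111 after APAP, with non-overlapping intervals of controls (lowest bound 0.153) and APAP (highest bound 0.148). Onecut1 is also made by bile duct cells, whose markers were uneven. Of 8 cholangiocyte markers, only Sox9 and Spp1 had enough reads, and both were higher. Sox9 was 3.97-fold (2.99 to 5.35) and 1.79-fold higher (1.33 to 2.42), and Spp1 1.90-fold and 2.14-fold. The list summed to 150 and 197 normalized reads in the controls and to 405 and 310 after APAP. The higher sum after APAP is that of Sox9 and Spp1. The other 6 markers, Krt7, Krt19, Epcam, Cftr, Muc1 and Sctr, together had 22 and 46 reads in the controls and 37 and 21 after APAP. Their summed fold, computed after values were seen, was 1.26 (0.724 to 2.24) at 24 h, but at 48 h it was 0.399 (0.226 to 0.683), and the control pools differed by 1.97-fold (1.16 to 3.44). Cftr was at 0 in 3 of the 4 libraries and Sctr in 1. The part of bile duct cells in the reads of Onecut1 was not tested.

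The genes with a pattern most like Onecut1 were Pecr, a peroxisomal enoyl-CoA reductase, Dpp4, a membrane peptidase, and Pm20d1, an enzyme of N-acyl amino acids. Their distances were 0.103, 0.118 and 0.125, measured as for Hnf4a. Pecr had 728 and 777 reads in the controls and 372 and 453 after APAP, Dpp4 273 and 270 against 143 and 148, and Pm20d1 294 and 309 against 173 and 170.

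Cebpa and Cebpb differed from control in opposite directions. Cebpa lies on the plus strand at chr7:35119293-35121928 and had 795 and 996 reads in the controls against 595 and 726 after APAP. Normalized, these were 904 and 1068 against 507 and 681, with both APAP pools below both controls. Cebpa was 1.78 times lower (1.60 to 1.99) at 24 h and 1.57 times lower (1.42 to 1.73) at 48 h. At 48 h it was no longer past 1.5-fold with library totals (0.766 of control), against the control pool at 24 h (0.753) or against both controls summed (0.689), each with an interval below 1. The ratio of the folds was 1.14 (0.983 to 1.31). The control pools differed by 1.18-fold (1.08 to 1.30), which is smaller than either difference between APAP and control. An antisense gene at its start, Gm45091, is not analysed here.

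Cebpb is an intronless gene on the plus strand at chr2:167688915-167690418. It had 401 and 353 reads in the controls against 1101 and 553 after APAP. Normalized, these were 456 and 378 against 938 and 518, so that the APAP pool at 24 h stood far above the other libraries and that at 48 h only somewhat above the controls. The fold of Cebpb was 2.06 at 24 h (1.83 to 2.31) and 1.37 at 48 h (1.20 to 1.57). The fold at 48 h was 0.666 (0.557 to 0.797) of that at 24 h, and this interval excludes 1. The control pool at 48 h held 0.830 times (0.718 to 0.960) the reads of that at 24 h. Tmem189, whose annotation overlaps Cebpb on the opposite strand, had 53 and 43 reads in the controls and 103 and 89 after APAP (1.46-fold, 1.04 to 2.07, and 1.81-fold, 1.24 to 2.67). The part of Tmem189 in the reads of Cebpb was not tested.

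The promoter windows of both C/EBP genes are shown beside each other because their mRNA levels differed in opposite directions. The windows end at the base before the start, at chr7:35119043-35119292 for Cebpa and at chr2:167688665-167688914 for Cebpb, both on the plus strand (RefSeq, GRCm38.p6). Capitals mark a TATA box (TATAAA) 30 bases before the start of Cebpa and 3 CRE half-sites before that of Cebpb, at 180 (on the opposite strand), 53 and 7 bases.
Cebpa: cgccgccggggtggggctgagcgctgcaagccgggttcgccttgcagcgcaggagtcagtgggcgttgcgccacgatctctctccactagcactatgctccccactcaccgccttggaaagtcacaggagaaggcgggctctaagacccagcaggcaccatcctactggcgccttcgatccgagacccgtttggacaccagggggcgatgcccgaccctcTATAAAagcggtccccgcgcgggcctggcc
Cebpb: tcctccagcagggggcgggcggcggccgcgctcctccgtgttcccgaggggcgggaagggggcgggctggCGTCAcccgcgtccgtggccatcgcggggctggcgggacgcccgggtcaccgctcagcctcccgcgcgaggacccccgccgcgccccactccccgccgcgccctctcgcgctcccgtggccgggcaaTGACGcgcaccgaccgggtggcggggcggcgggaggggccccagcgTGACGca
The windows are rich in G and C, with 66.4% in Cebpa and 81.6% in Cebpb. No half-site was found before Cebpa, and no TATAAA before Cebpb. None of the 12 windows of the 8 factors held the letters of the C/EBP site (TTGCNNAA, in 9.57% of all windows), the HNF4 site (CAAAGTCCA, 0.384%), the full CRE (TGACGTCA, 1.55%) or the STAT site (TTCNNNGAA, 7.01%). Both strands were searched. These are matches of letters only and say nothing about binding, and other forms of a site are not found by such a search.

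The ratio of Cebpb to Cebpa reads is free of library scaling. It was 0.504 (0.446 to 0.569) and 0.354 (0.313 to 0.401) in the controls. After APAP it reached 1.85 (1.67 to 2.05) at 24 h and stood at 0.762 (0.681 to 0.852) at 48 h. Cebpb thus had more reads than Cebpa in the APAP pool at 24 h and fewer in the other 3 libraries, and both APAP pools exceeded both controls. Hnf4a reads per Cebpa read were 0.883 and 0.855 in the controls and 1.84 and 1.26 after APAP.

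**Figure D3:**
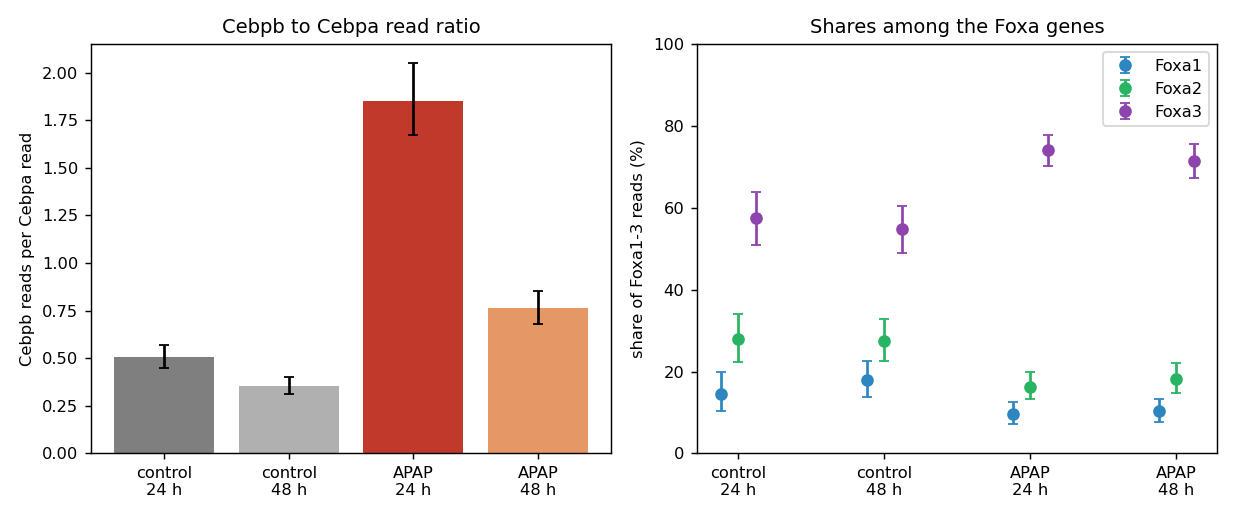
Left, Cebpb reads per Cebpa read (y axis, linear from 0) in each library, with the 95% exact interval; the bars read 0.504 and 0.354 for the controls and 1.85 and 0.762 for APAP. Right, share of each Foxa gene among the Foxa1, Foxa2 and Foxa3 reads of a library (y axis, percent), with the 95% exact interval; the points of Foxa3 lay at 57.5% and 54.7% in the controls and at 74.1% and 71.5% after APAP.

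Prox1 showed no difference beyond counting error. It lies on the minus strand at chr1:190118035-190170714 and had 129 and 134 reads in the controls and 148 and 153 after APAP. Normalized, these were 147 and 144 against 126 and 143. Both APAP pools thus lay below both controls, at 48 h by a small margin only (143.5 against 143.7). The folds were 0.860 at 24 h (0.674 to 1.10) and 0.998 at 48 h (0.787 to 1.27). The transcript on its opposite strand, Prox1os at chr1:190170296-190217276, had 47 and 28 reads in the controls and 115 and 78 after APAP. It exceeded control 1.83-fold (1.29 to 2.63) and 2.44-fold (1.56 to 3.90), and there were 0.364 and 0.209 Prox1os reads per Prox1 read in the controls against 0.777 and 0.510 after APAP. The control pools differed for Prox1os as well, by 0.562 times (0.339 to 0.916).

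The other factors of the C/EBP network were read in the same way. For this and all lists below, the shares of all genes tested past 1.5-fold serve as background. They were 11.5% higher and 13.3% lower at 24 h, and 10.6% higher and 13.6% lower at 48 h. Of 9 genes that encode C/EBP proteins or act on them, 4 were at least 1.5-fold higher at 24 h and 1 was lower, and at 48 h 3 were higher and 1 lower. The median log2 fold was 0.19 and 0.01. Cebpd, which like Cebpb belongs to the acute-phase response, had 11 and 21 reads in the controls and 141 and 73 after APAP, which is 9.60-fold (5.21 to 19.7) and 3.04-fold higher (1.85 to 5.2). Ddit3, a stress-induced partner also known as CHOP, had 21 and 17 reads against 162 and 37 and was 5.78-fold (3.66 to 9.59) and 1.90-fold higher (1.05 to 3.60). Both were thus, like Cebpb, further from control at 24 h than at 48 h, a difference that was not tested for these 2 genes. The other genes past 1.5-fold were named after their values were seen. They were Trib1, which directs C/EBPα to degradation (1.52-fold higher at 24 h), its relative Trib3, and Cebpe (2.83 times and 1.82 times lower). Trib3 had 22 and 11 reads in the controls and 55 and 24 after APAP, 1.87-fold (1.12 to 3.23) and 1.91-fold higher (0.900 to 4.31). Its interval at 48 h includes 1, and its control pools differed by 0.472 times (0.206 to 1.01).

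The next list holds genes of signalling pathways that act on Cebpb, with the feedback inhibitor Socs3 among them. Of 6 with enough reads, 3 were higher at 24 h and 4 at 48 h, and none was lower. Of all genes tested 11.5% and 10.6% were higher, and the list was chosen with earlier results of these data known. Their median log2 fold was 0.78 and 0.74. Socs3, a feedback inhibitor of cytokine signalling, had 11 and 17 reads in the controls and 138 and 49 after APAP, and was 9.40-fold (5.09 to 19.3) and 2.52-fold higher (1.43 to 4.67). Il1r1, the interleukin-1 receptor, had 44 and 62 reads against 271 and 132 and was 4.61-fold (3.35 to 6.50) and 1.86-fold higher (1.37 to 2.56). Stat3, the transcription factor activated by interleukin-6, was 1.97-fold (1.65 to 2.36) and 1.5-fold higher (1.26 to 1.81), and Il6ra was past 1.5-fold at 48 h only, at 2.47-fold. Il1b and Tnf had 4 reads or fewer in every library.

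Cebpa, Cebpb and several of these genes are also expressed in myeloid cells. Of 9 myeloid markers with enough reads, 6 were higher at 24 h and 1 was lower, and 6 were higher at 48 h. The 11 markers listed summed to 782 and 777 normalized reads in the controls and to 1307 and 1811 after APAP, and none was at 0. S100a8 was 20.8-fold (8.71 to 65.2) and 9.27-fold higher (4.85 to 19.9), and Cd14 11.5-fold and 2.08-fold. The Kupffer cell gene Clec4f was 1.87 times lower (1.55 to 2.27) at 24 h. The myeloid sum was higher at 48 h than at 24 h after APAP, but single markers went both ways. Lyz2 (384 and 659 reads after APAP) and Cd68 (161 and 345) had more reads at 48 h. S100a8 (139 and 106), S100a9 (75 and 38), Cd14 (77 and 38) and Marco (245 and 169) had more at 24 h. Of these, Lyz2, Cd68, S100a9 and Marco were named after their values were seen. The part of myeloid cells in the reads of Cebpb was not tested.

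Acute-phase genes, many of them known targets of C/EBPβ, were uneven. Of 12 genes, 2 were higher and 3 lower at 24 h (median log2 fold -0.20), and 5 were higher and 2 lower at 48 h (median 0.43). Here the control pool at 24 h stood apart. Of the 12 genes, 6 were at least 1.5-fold lower in the control pool at 48 h than in that at 24 h and none was higher. Saa3 had 1487 and 168 reads in the controls and 195 and 147 after APAP, with the control pool at 24 h far above the other 3 libraries, and its fold at 24 h was 0.0982. Lcn2, an iron-sequestering protein, had 3710 and 673 reads in the controls and 11781 and 3474 after APAP, and was 2.38-fold (2.29 to 2.47) and 4.51-fold higher (4.16 to 4.91). The same control pool had the higher Cebpb reads and the lower Cebpa reads of both controls. Against the other control pool, Cebpb was 2.48-fold (2.20 to 2.80) above control at 24 h and 1.14-fold (0.998 to 1.30) above it at 48 h, and Cebpa 0.475 (0.428 to 0.526) and 0.753 (0.680 to 0.834) times control. The part of an acute-phase state of that pool in the folds of both genes was not tested.

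Target genes of HNF4A were read next, beside Hnf4a reads that were within 1.5-fold of control. At least 1.5-fold lower were 8 of 16 at 24 h and 8 of 16 at 48 h, 7 of them at both time points, and none was higher. The background of genes past this size downward was 13.3% and 13.6%, as given above. The list was chosen with earlier results of these data known, so that its count beside the background is a description only. The median log2 fold of the list was -0.70 and -0.62. Cyp8b1, a sterol hydroxylase of bile acid synthesis, had 2717 and 2122 reads in the controls and 412 and 475 after APAP and was 8.80 times (7.93 to 9.79) and 5.11 times lower (4.62 to 5.65). Pklr, the liver pyruvate kinase, had 1357 and 1485 reads against 365 and 259 and was 4.96 times (4.42 to 5.59) and 6.56 times lower (5.74 to 7.51). In contrast, the apolipoprotein gene Apoa1, also on this list, stayed near control at 1.17-fold and 0.968-fold. Apoa1, Apob and Ttr are also among the hepatocyte markers below. The reads do not measure HNF4A protein, and its part in the folds of these genes was not tested.

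Target genes of FOXA proteins and of C/EBPα were divided. Of 11 genes, 2 were higher and 3 lower at 24 h, and 2 were higher and 4 lower at 48 h, with a median log2 fold of -0.22 and -0.02. With library totals the counts at 48 h were 4 higher and 0 lower. The higher genes were Igfbp1, an insulin-like growth factor binding protein (2.09-fold and 5.90-fold, with 319 and 242 reads in the controls and 892 and 1633 after APAP), and Pck1, the gluconeogenic enzyme (4.07-fold and 3.31-fold, with 710 and 904 reads against 3853 and 3417). Of the genes named after their values were seen, the bile salt exporter Abcb11 was 2.51 times and 1.79 times lower, and Gys2, the liver glycogen synthase, was 2.48 times and 1.61 times lower. Alb itself was at 0.873 and 0.989 of control.

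Most of the other hepatocyte transcription factors stayed near control, as Hnf4a and most of all genes tested did. Of 20 with enough reads, 1 was at least 1.5-fold higher and 2 were lower at 24 h, and 1 was higher and 1 lower at 48 h. The median log2 fold was -0.02 at both time points. The largest folds belonged to Tbx3, a T-box repressor (44 and 52 reads in the controls, 21 and 32 after APAP, 2.80 times and 1.86 times lower), and to Gata6, a zinc finger factor (21 and 19 reads against 37 and 44, 1.32-fold and 2.03-fold higher). The others past 1.5-fold, named after their values were seen, were Zbtb20, a repressor of fetal liver genes, 1.82 times lower at 24 h, and the xenobiotic receptor Nr1i3, 1.64-fold higher at 24 h. With library totals the counts were 3 higher and 2 lower at 24 h, and 3 higher and 1 lower at 48 h.

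Of 7 cofactors of HNF4A and PROX1, none was past 1.5-fold at 24 h. At 48 h Nr0b2, the corepressor also known as SHP, had 147 reads against 253 in its control and was 1.97 times lower (1.60 to 2.43). Kdm1a, a histone demethylase found in PROX1 complexes, had 47 reads against 18 and was 2.28-fold higher (1.30 to 4.18), but its control pools differed by 0.531 times (0.280 to 0.974). The median log2 fold of the cofactors was 0.01 and 0.10.

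**Figure D4:**
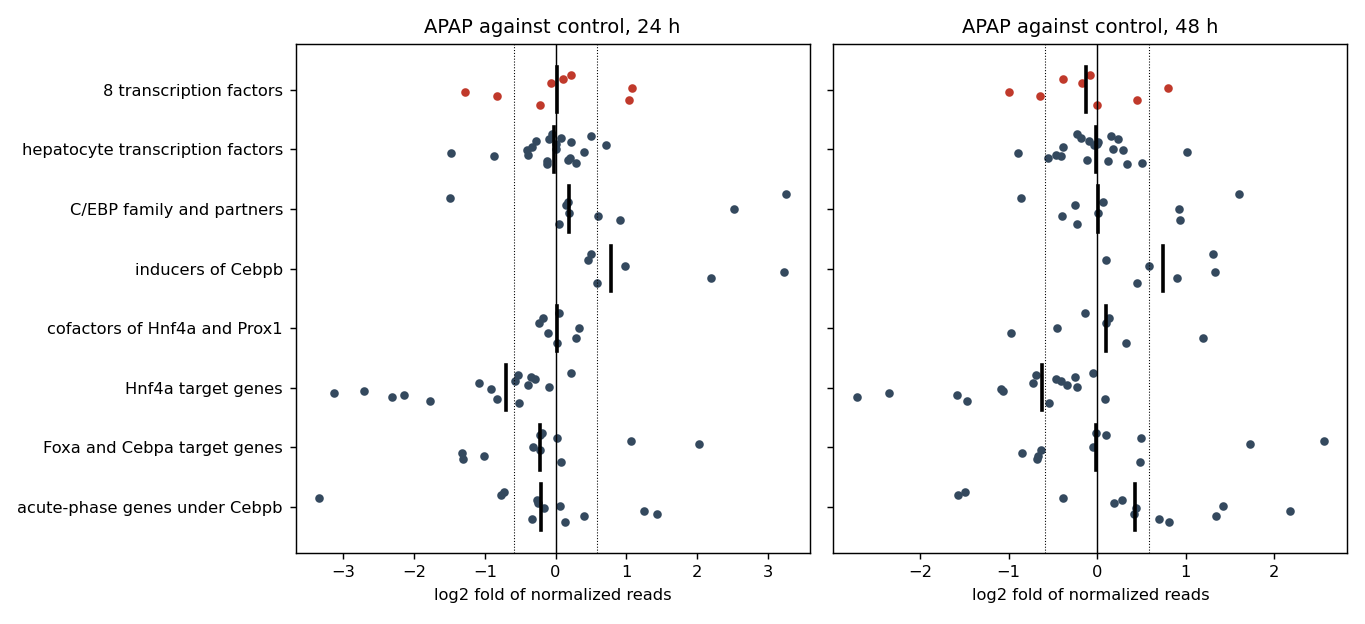
Log2 fold of normalized reads of APAP against control at 24 h (left) and 48 h (right) for the genes of each list with enough reads, 1 point per gene, with the median of the list as a vertical bar and 1.5-fold in each direction as dotted lines. The bar of the HNF4A target genes lay at -0.70 and -0.62, left of the line for 1.5-fold, while those of the 8 transcription factors lay at 0.02 and -0.13.

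Markers of hepatocytes and of the other liver cells were read beside the factors. Of 8 hepatocyte markers, 2 were at least 1.5-fold lower at 24 h, namely Ttr (1.78 times) and Serpinc1 (1.51 times), and 1 at 48 h, Serpinc1 (1.65 times). Their median log2 fold was -0.24 and -0.13. They summed to 448661 and 460613 normalized reads in the controls and to 413099 and 468713 after APAP. Among 7 stellate cell markers, 3 were higher and 1 lower at 24 h and 5 were higher at 48 h (Acta2 2.16-fold and 13.6-fold, Col1a1 1.44-fold and 4.50-fold). The list summed to 256 and 266 normalized reads in the controls and to 298 and 685 after APAP. Of 8 endothelial markers, 2 were higher at both time points, Pecam1 (1.67-fold and 1.94-fold) and Lyve1 (2.62-fold and 2.04-fold). The others stayed within 1.5-fold of control. The 10 endothelial genes listed summed to 803 and 939 normalized reads in the controls and to 899 and 1001 after APAP. None of the 5 fetal liver genes found in the table reached a mean of 20 normalized reads, and Afp, the fetal albumin relative, had 13 and 10 reads in the controls and 28 and 23 after APAP. The part of these cell types in the folds of the 8 factors was not tested.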

How the data were processed

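MACE libraries were made from 4 pools of hepatic RNA with the MACE-kit v.2, 1 library per pool. Per the methods, the authors collapsed PCR duplicates with unique molecular identifiers, trimmed poor bases and A-tails, aligned to mm10 and counted genes with HTSeq. The strand setting is not given in the sources used here. The deposited counts are whole numbers of reads per gene. Columns with RPM, log2 ratios, p-values and false discovery rates of the authors' own comparisons were not used.

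The 8 factors were found by symbol, and libraries were mapped to groups by their labels. Counts were divided by median-of-ratios size factors (DESeq2 1.42.0, R 4.3.3). Folds, with counts of 3 or fewer set to 3, and 95% Clopper-Pearson intervals were computed in Python 3.11.15 (numpy 2.4.6, scipy 1.17.1, pandas 2.3.3), and ratios of folds have exact conditional intervals. Intervals and floor cover counting error only. Code for folds and intervals was tested on simulated data. Called genes had a fold of at least 1.5 and a mean of at least 20 normalized reads. Alternatives were TMM (edgeR 4.0.16), library totals, a pseudocount of 1, other control pools, folds of at least 2 or 5, an interval excluding 1 and no filter.

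Named genes were every factor, the 2 genes per list with the largest absolute log2 fold whose interval excluded 1, and the 3 genes most like the factor with the most reads and the factor with the largest fold. Some others are marked where they are named. Further genes outside this rule are not marked, among them Stat3, Il6ra, Apoa1, Clec4f, Alb and Onecut2. The factors and the 13 lists were chosen with earlier results of these data known. The overlapping transcripts, the sums of Onecut1 with Gm20649 and of 6 cholangiocyte markers and 4 of the 9 motifs (TATA, CCAAT, STAT and CRE half-site) were added after values were seen. Tf, Apoc2, Il6 and Dlk1 are not analysed here, and a few genes and motifs are not reported here. Positions are from GENCODE mouse release 21 (GRCm38), promoter windows from RefSeq (GRCm38.p6; 8 of 8 factors matched, 12 windows). The last 300 bases of each factor matched no other gene's transcripts (0 of 8; blastn 2.17.0, 100 bases or more at 95% identity or more). Overlap further upstream, as of Onecut1 with Gm20649, is not found by this search. Plots were drawn with matplotlib 3.10.9.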

Additional observations from a re-analysis of the deposited data

Results flagged for a closer look

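For Hnf4a and Cebpb the fold at 48 h differed from that at 24 h beyond counting error. How often this holds over all genes was not counted. The interval narrows with more reads, so that Foxa1, with few reads and a ratio of 0.709 (0.378 to 1.32), was not flagged. The ratio of the folds was 0.809 (95% exact conditional interval 0.706 to 0.926) for Hnf4a and 0.666 (0.557 to 0.797) for Cebpb. For Hnf4a the folds lay on either side of 1, at 1.17 and 0.942, and the control pools differed by 1.14-fold. For Cebpb both folds were above 1, at 2.06 and 1.37. Each interval compares 4 libraries and not the time points, since a group is 1 pool.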

How the results depend on the processing

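With 1 pool per group the spread between mice is not visible and leaving out a replicate was not run. No paired analysis was possible because each group holds 1 library and no result comes from a test. Depth limits Foxa1 (34 to 55 reads), Foxa2 and Onecut1 most. Every factor past 1.5-fold stayed past it with TMM or a pseudocount of 1. With a threshold of 2-fold, 3 of 8 factors were past it at 24 h and 0 at 48 h, and with 5-fold 0 at 24 h and 0 at 48 h.

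Library totals in place of size factors raised the median log2 fold of all genes by 0.19 (24 h) and 0.27 (48 h). It raised the share of higher genes among all genes past 1.5-fold from 46.2% to 70.9% and from 43.7% to 76.5%. The change of scale multiplies the folds of all genes at a time point alike, so that no factor moved relative to the others. With it Hnf4a became 1.33 and 1.13, Cebpa 0.638 and 0.766 and Cebpb 2.34 and 1.65. At 48 h Cebpb thus passed 1.5-fold and Cebpa did not. The interval of the ratio of folds of Cebpa (1.20, 1.04 to 1.39) then excluded 1. The median log2 fold of the 8 factors at 48 h became 0.13, and those of the other hepatocyte factors (0.16 and 0.25), of the FOXA and C/EBPα targets at 48 h (0.25, with 4 genes higher and 0 lower) and of the hepatocyte markers at 48 h (0.14) turned positive, while the HNF4A targets stayed negative (-0.52 and -0.35, with 8 and 6 genes lower).

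Against the control pool of the other time, Hnf4a was 1.02 and 1.08, Foxa1 1.16 at 48 h, and the medians of the 8 factors were -0.27 and 0.11. Cebpa (0.475 and 0.753) and Cebpb (2.48 and 1.14) moved too. At 48 h 2 factors, Foxa3 and Onecut1, were then past 1.5-fold, as with both controls summed (Cebpa 0.689). The cause of these shifts was not tested.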
